A study of Mus musculus with 12 samples.

Results

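Keratin genes encode the intermediate filament proteins of epithelial cells. The 53 members described here are the protein-coding genes of the mouse RefSeq gene table (build mm10) whose symbol is Krt followed directly by a digit, out of 21887 protein-coding genes on chromosomes 1 to 19, X and Y. They form a type I cluster of 27 genes on chromosome 11 and a type II cluster of 26 genes on chromosome 15. Krt18, a type I gene, lies at the edge of the type II cluster and is counted there. Members were chosen by name, not by any measured value, though with earlier results of these data known.

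The study immunoprecipitated chromatin from back skin of mice aged 8 to 10 weeks under a 5 Gy ionizing radiation protocol. The 12 samples form 6 groups of 2: K17KO skin with a p53 antibody, wild-type (WT) skin with a p53 antibody and WT skin with an antibody to histone H3 trimethylated at lysine 4 (H3K4me3), each at T0 and 6 h. The labels do not spell out K17KO. The gene table lists K17 as a synonym of Krt17 and of the olfactory receptor gene Olfr141, and a peak list cannot check a deletion. The allele, the strain and whether the samples of a group came from separate mice are not stated in the labels.

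A peak is a stretch of genome where the authors' peak caller found more immunoprecipitated fragments than its background. There were 3 peak lists, with 1101 peaks for K17KO p53, 2909 for WT p53 and 5464 for H3K4me3. WT was inferred for the p53 list that names its antibody alone. The lists give neither time point, library nor control, so T0 and 6 h cannot be told apart, and no value below has a replicate error or a test. If the control behind the H3K4me3 list carried the mark, a peak shows a difference from that control, and the lack of a peak does not show that the mark was missing. The fold enrichment and the −log10 q of each peak are the authors' values and describe a peak within its own list. The fragments at a peak's summit and the background were recovered from them, and intervals on fragments are exact Poisson intervals at 95% that cover counting error only.

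Keratin filaments are built from pairs of an acidic type I and a basic type II keratin, and each layer of the skin makes its own pair. Krt5 and Krt14 mark the basal layer of the epidermis, and Krt1 and Krt10 replace them as cells move outward. Krt6a, Krt16 and Krt17 are made in hair follicles and in stressed or wounded epidermis, other sets build the inner root sheath and the hair shaft, and Krt8 and Krt18 form the filaments of simple epithelia. H3K4me3 is found at the starts of active genes. p53 is the transcription factor activated by DNA damage.

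Promoter sequences came from RefSeq (GRCm38.p6, which has the coordinates of mm10), as the 250 bases before a gene's start, for 36 of the 53 members and 37 promoters. A peak reached into the printed bases at Krt7 and Krt78, so these are shown first, on the gene's strand and with the bases inside the peak in capitals. At Krt7 (chr15:101412153-101412402, plus strand) 119 of 250 bases lay in the K17KO p53 peak. At Krt78 (chr15:101954288-101954537, minus strand) 232 of 250 lay in the H3K4me3 peak.
Krt7: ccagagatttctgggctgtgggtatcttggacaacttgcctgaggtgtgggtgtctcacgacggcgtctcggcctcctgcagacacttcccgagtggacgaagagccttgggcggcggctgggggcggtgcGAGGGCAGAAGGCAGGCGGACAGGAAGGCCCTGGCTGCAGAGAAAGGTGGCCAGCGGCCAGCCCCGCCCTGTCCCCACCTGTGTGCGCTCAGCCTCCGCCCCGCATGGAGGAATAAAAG
Krt78: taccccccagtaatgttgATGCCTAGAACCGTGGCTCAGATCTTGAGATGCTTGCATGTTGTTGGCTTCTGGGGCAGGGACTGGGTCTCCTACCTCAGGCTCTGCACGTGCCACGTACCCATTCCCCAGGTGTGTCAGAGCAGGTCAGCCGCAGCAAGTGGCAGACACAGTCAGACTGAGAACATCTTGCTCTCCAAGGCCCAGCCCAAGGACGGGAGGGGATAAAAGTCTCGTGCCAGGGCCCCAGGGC

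The promoters of Krt28 (chr11:99374904-99375153, minus strand) and Krt10 (chr11:99389365-99389614, minus strand) belong to genes with an H3K4me3 peak inside the gene and show the TATA box letters common in the type I cluster. Capitals mark TATAAA, which began 30 bases before the start of Krt28 and 26 bases before that of Krt10.
Krt28: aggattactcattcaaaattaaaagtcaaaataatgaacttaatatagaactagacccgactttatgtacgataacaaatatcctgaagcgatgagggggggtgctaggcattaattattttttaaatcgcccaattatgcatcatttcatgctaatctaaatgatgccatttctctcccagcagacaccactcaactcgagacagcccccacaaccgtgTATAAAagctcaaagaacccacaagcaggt
Krt10: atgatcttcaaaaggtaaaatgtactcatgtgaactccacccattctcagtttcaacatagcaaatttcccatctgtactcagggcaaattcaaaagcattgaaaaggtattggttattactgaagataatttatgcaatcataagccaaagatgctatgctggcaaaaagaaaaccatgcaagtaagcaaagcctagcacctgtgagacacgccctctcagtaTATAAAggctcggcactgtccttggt

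Where the 3 lists had peaks in the keratin clusters was examined first. A member had a peak when the midpoint of a peak lay inside it or within 5 kb of its ends. Of the 53 members 11 had a peak in at least 1 list and 42 had none. H3K4me3 accounted for most of them, with 15 peaks at 9 members (17%, against 23.9% of all protein-coding genes). The K17KO p53 list had 1 peak at 1 member (1.89%, against 3.79% of all genes), and the WT p53 list had 1 peak at 2 members (3.77%, against 6.75%). The median length was 7.07 kb over members and 17.2 kb over all protein-coding genes, and the part of gene length in these shares was not tested. Counting only the upper 50% of each list by fold left 0 members with a p53 peak in the K17KO list (1.91% of all genes) and in the WT list (3.58%). It left 8 members with an H3K4me3 peak (15.1%), then above the share of all genes, 10.8%. No peak at a member overlapped a peak of another list. The share of all peaks that overlap between lists was not counted, so this cannot be read as particular to keratin genes.

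**Figure D1:**
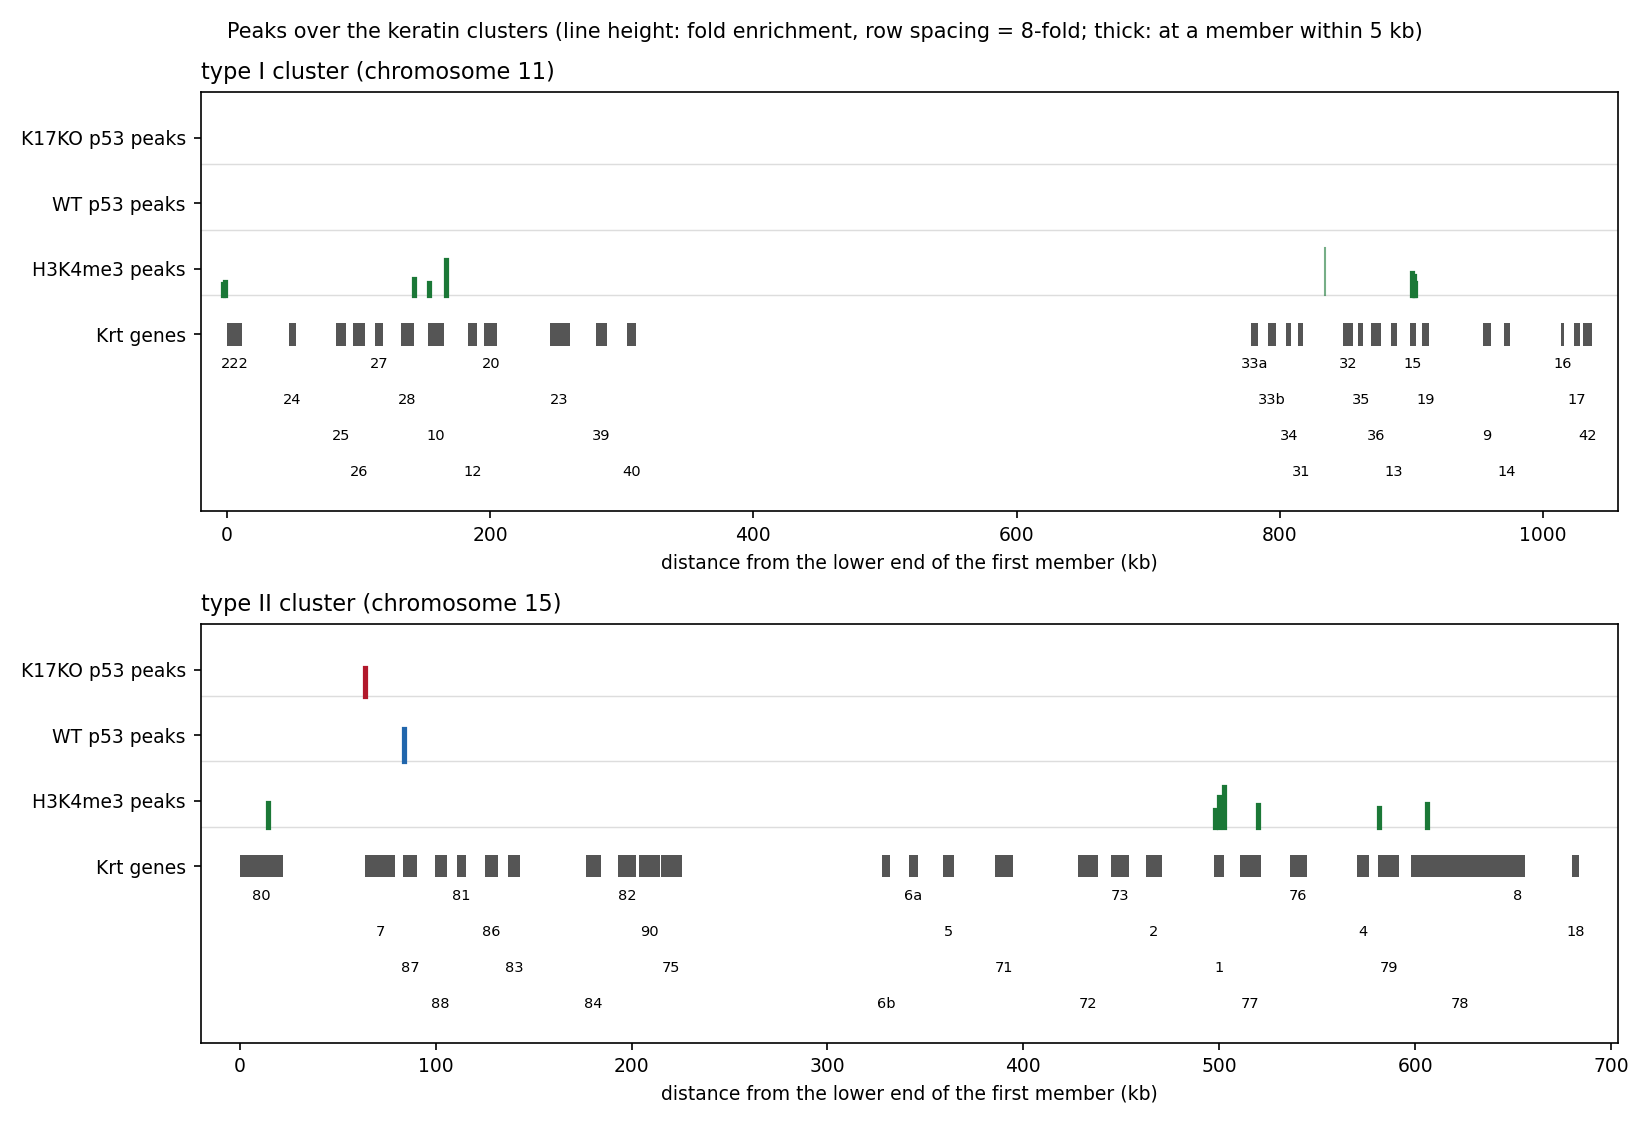
Keratin genes (grey bars, numbered below by the digits of their symbols) and peaks along the type I cluster (upper panel) and the type II cluster (lower panel), by distance in kb from the lower end of the first member. Line height is the fold enrichment, with a row spacing of 8-fold, and thick lines are peaks at a member. The map ends 20 kb beyond the outermost members. Within it the p53 lines, 1 in each list, stand near Krt7 and Krt87, and the H3K4me3 lines stand at Krt222, at Krt28 and Krt10, near Krt32, at Krt15, at Krt80 and from Krt1 to Krt78.

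The pair of the suprabasal epidermis, Krt1 and Krt10, had H3K4me3 peaks in both clusters. Krt1, the type II partner, had 3 peaks that all lay inside the gene and covered 22.5% of its 5.36 kb. The first, on chromosome 15 from 101850417 to 101850734, had its midpoint 211 bp inside the gene's upper end. It had a fold enrichment of 4.84, which ranked 118 of 5464 by fold, and rested on 31 fragments (21.1 to 44.0) over a background of 5.61, with a −log10 q of 9.06. This was the highest fold and the highest −log10 q among the 15 keratin peaks. The second Krt1 peak, from 101848017 to 101848644 in the middle of the gene, had a fold of 3.59 and rested on 16 fragments (9.15 to 26.0) over 3.74. The third, from 101845914 to 101846171 near the lower end, had a fold of 2.07 and rested on 59 fragments (44.9 to 76.1) over 28. The background thus differed along the gene, and the peak with the most fragments had the lowest fold.

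Krt10, the type I partner, had 2 H3K4me3 peaks. The peak inside the gene, on chromosome 11 from 99386189 to 99386569, had a fold of 1.5 and rested on 139 fragments (117 to 164) over a background of 92.6. Its midpoint lay 2985 bp downstream of the start site in the promoter table. The other, from 99399079 to 99399316, had a fold of 4.28 but rested on 9 fragments (4.12 to 17.1) over 1.34. It lay 1748 bp beyond the upper end of the gene, at 99397449. The start site in the promoter table, at 99389364, lies inside the gene. This second peak was therefore upstream of that start site, and much farther from it than from the gene's end. Of the 5 members of the suprabasal group 3 had an H3K4me3 peak, against 23.9% of all genes. The third was Krt77, a type II keratin gene next to Krt1, with a peak of 2.64-fold inside the gene, 1720 bp from its start, resting on 14 fragments (7.65 to 23.5) over 4.67. The −log10 q of that peak was 0.961. Krt2, made in the upper epidermis, and Krt9, of palm and sole skin, had none, and their nearest H3K4me3 peaks lay 27.1 kb and 51.3 kb away.

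Krt15, a type I keratin of basal cells and of the hair follicle bulge where stem cells reside, was the most densely covered member. It had 3 H3K4me3 peaks that together covered 50.8% of its 4.19 kb. The peak from 100132938 to 100133634 on chromosome 11 had a fold of 2.69 with 62 fragments (47.5 to 79.5) over 22.4 and a −log10 q of 7.33. The next, from 100134053 to 100134909, had a fold of 2.31 with 65 fragments (50.2 to 82.8) over 27.6. The last, from 100135172 to 100135747, had a fold of 1.5 with 68 fragments (52.8 to 86.2) over 44.9, and a −log10 q of 0.464, the lowest of the keratin peaks. The 3 peaks rested on much the same number of fragments, and their folds fell as the background rose. Krt1 and Krt15 were the members with 3 or more H3K4me3 peaks, 2 of 53, against 0.982% of all protein-coding genes. Krt10 and Krt222 brought the members with 2 or more to 4 of 53, against 4.2% of all genes. The peaks counted for Krt222 lay inside a neighbouring gene.

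The other basal keratin genes did not share the peaks of Krt15. Neither Krt14 nor Krt5 had a peak of any kind. H3K4me3 peaks came no closer than 67.7 kb to Krt14 and 133 kb to Krt5. Among the keratins of the hair follicle outer root sheath, companion layer and stressed epidermis, 0 of 6 members had a peak in any list, where the shares of all genes were 3.79% for K17KO p53, 6.75% for WT p53 and 23.9% for H3K4me3. The nearest H3K4me3 peak was 59.1 kb from Krt17, 71.3 kb from Krt16, 152 kb from Krt6a and 166 kb from Krt6b. For Krt17 the nearest p53 peaks were 1180 kb away in the K17KO list and 61.8 kb away in the WT list.

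**Figure D2:**
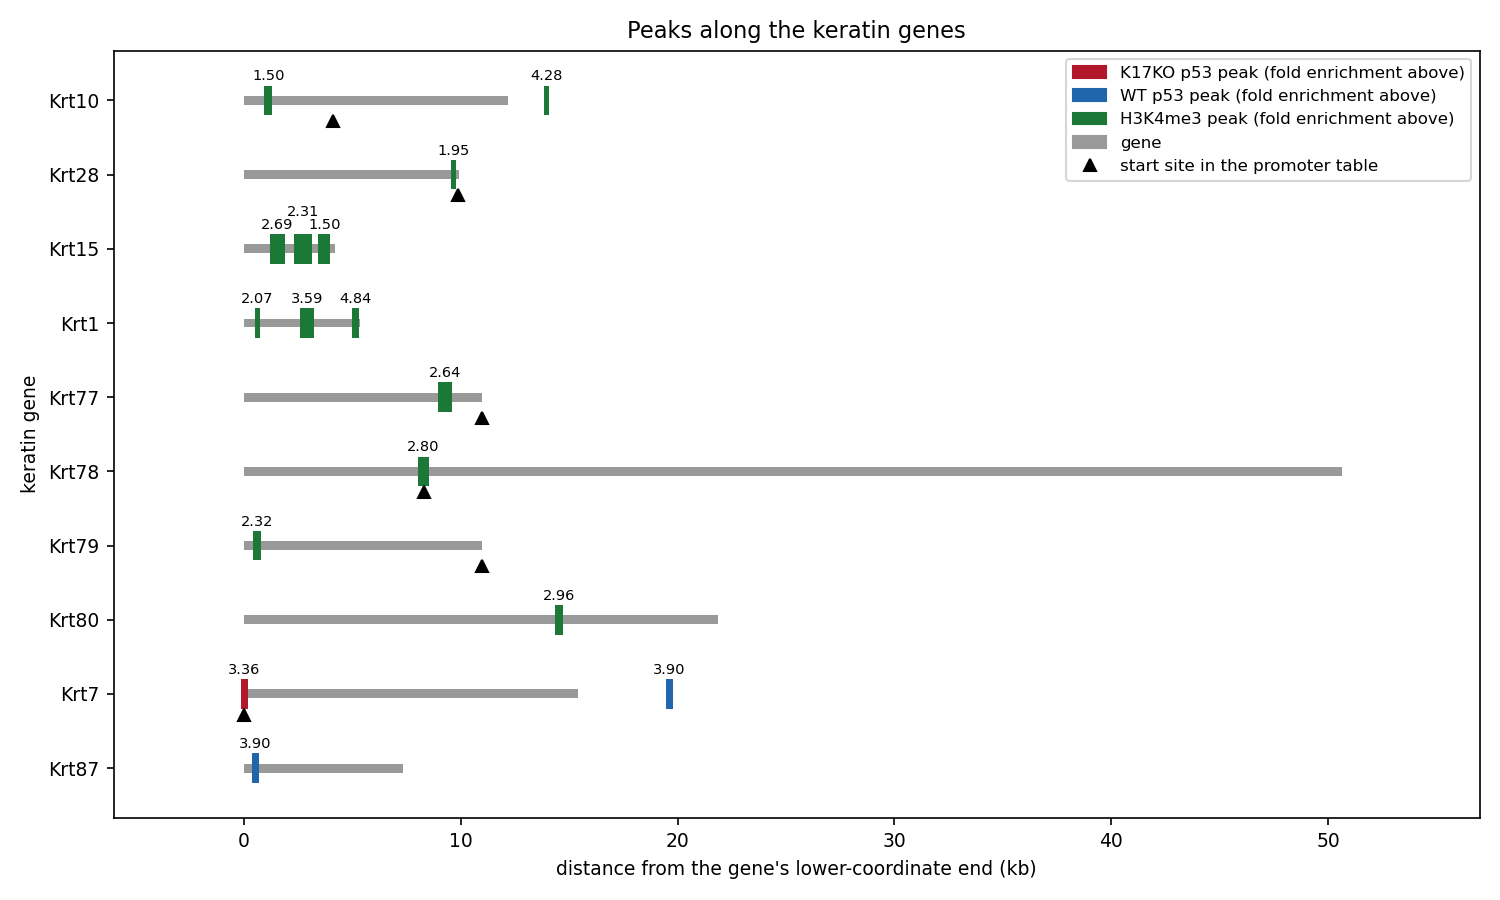
Peaks along the 10 members with a peak midpoint inside the gene, with distance in kb from the gene's lower-coordinate end on the horizontal axis, the gene as a grey bar, peaks as coloured blocks with their fold enrichment above, and start sites of the promoter table as triangles. Krt1 and Krt15 each carry 3 H3K4me3 blocks. The Krt78 block and the K17KO p53 block of Krt7 lie over a start site, and the Krt79 block lies at the end opposite the start.

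Among the inner root sheath keratins 1 of 7 members (14.3%) had an H3K4me3 peak, against 23.9% of all genes. Krt28, a type I keratin of that sheath, had a peak of 1.95-fold on 83 fragments (66.1 to 103) over 42.1, with a −log10 q of 4.31. Its midpoint lay 233 bp downstream of the start, next to the promoter printed above. Krt25, Krt26 and Krt27, its neighbours of the same sheath, had none, with 51.7 kb, 36.7 kb and 23.6 kb to the nearest H3K4me3 peak.

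Among the keratins of hair shaft and nail 0 of 15 members had an H3K4me3 peak within 5 kb, against 23.9% of all genes. A peak of 5.78-fold, which ranked 29 of 5464 by fold, lay between Krt31 and Krt32 on chromosome 11 from 100066898 to 100067693. It rested on 21 fragments (13.0 to 32.1) over 2.80, with a −log10 q of 7.85, and lay 13.6 kb from Krt32 and 16.7 kb from Krt31, too far to count for either. Its fold was above that of every peak that did count.

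Of the 7 keratins of other stratified epithelia and the cornea 2 (28.6%) had an H3K4me3 peak, both in the type II cluster, against 23.9% of all genes. The Krt78 peak, from 101954049 to 101954519, was centred 3 bp from the start of the gene and is the one in capitals in the Krt78 promoter above. It had a fold of 2.80 on 13 fragments (6.92 to 22.2) over 4.01, with a −log10 q of 1.09. The Krt79 peak had a fold of 2.32 on 23 fragments (14.6 to 34.5) over 9.35 and lay 10397 bp from the start, at the other end of the gene. Krt79 was placed in this group although it marks the hair canal in mice. Krt4 lay just outside the limit, with a peak 5.19 kb away, as did Krt19 among the simple keratins at 5.35 kb, while the counted peaks that came nearest to the limit lay 2.6 kb and 1.78 kb from Krt222 and 1.75 kb from Krt10.

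Krt80 and Krt222 stand outside these groups. Krt80, a type II keratin of many epithelia, had a peak of 2.96-fold inside the gene on 27 fragments (17.8 to 39.3) over 8.46, with a −log10 q of 3.46. Krt222, a keratin-like gene at the edge of the type I cluster, was counted for 2 peaks of 1.54-fold and 1.37-fold, which rested on 203 and 222 fragments over 132 and 162. Both lay inside the neighbouring gene Smarce1, which encodes a subunit of the SWI/SNF chromatin remodelling complex, and not inside Krt222. Without them 3 members of the type I cluster and 5 of the type II cluster had a midpoint inside the gene.

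**Figure D3:**
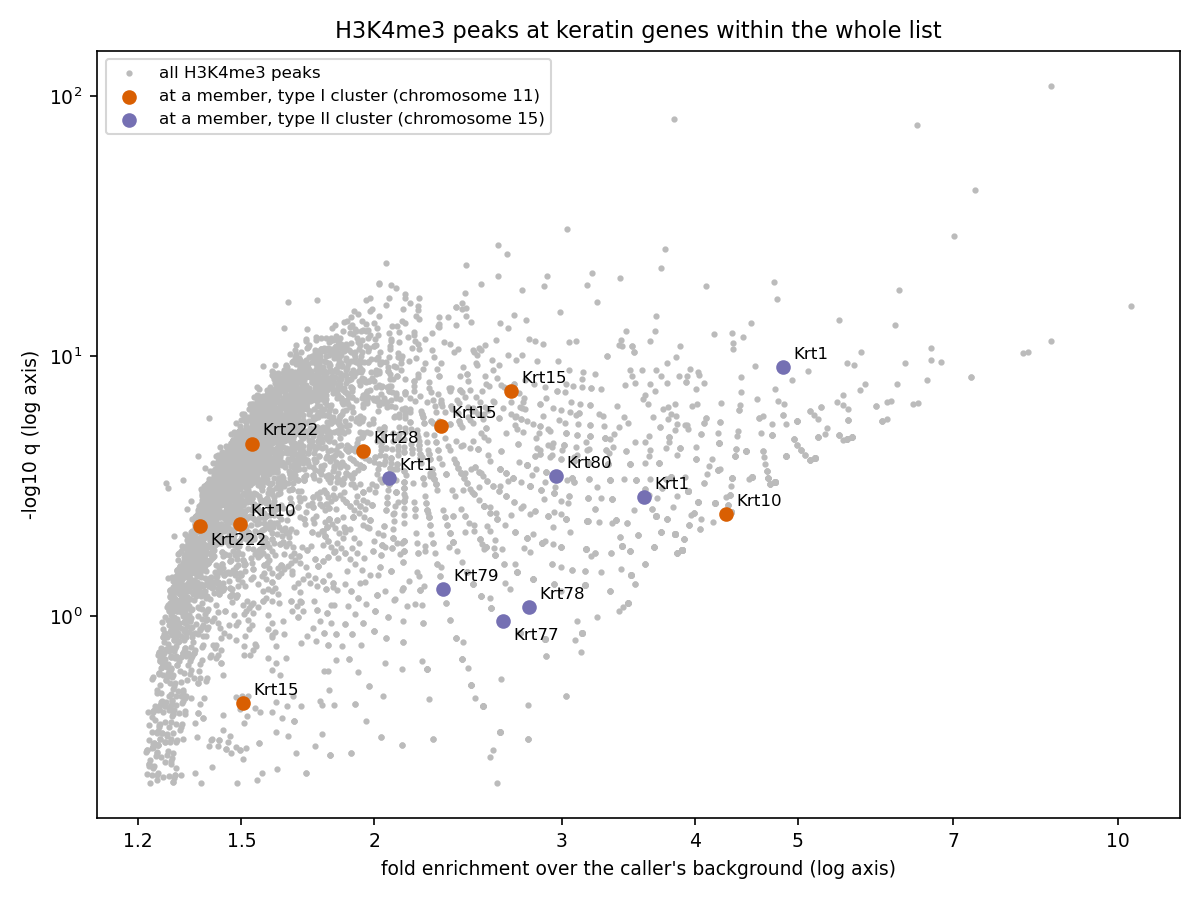
Every H3K4me3 peak by fold enrichment over the caller's background (horizontal, log axis) and −log10 q (vertical, log axis), with peaks at type I members in orange and at type II members in purple, labelled by gene. The 7 type II peaks lie right of 2-fold, from 2.07 to 4.84, while the 8 type I peaks run from 1.37 to 4.28.

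The type I and type II clusters were then set side by side. H3K4me3 peaks lay at 4 of 27 type I members (14.8%) and 5 of 26 type II members (19.2%), against 23.9% of all genes. The order of the clusters depended on the setting. It turned at q-values up to 0.01, with 4 type I and 2 type II members (18.4% of all genes), with a 20 kb window, with 9 and 7 (32.9%), and when only gene ends counted, with 4 and 3 (21.5%). At q-values up to 0.1 both clusters had 4 (22.0%). Each of these type I counts included Krt222, whose peaks lay inside Smarce1. The order with gene ends and the tie at q-values up to 0.1 depended on that gene. The type I peaks had a median fold of 1.74 and a median background of 43.5, and the type II peaks a median fold of 2.80 and a median background of 5.61. All 7 type II peaks and 4 of 8 type I peaks were above the median fold of the whole list, 1.66. In that list the 1480 peaks with a background of up to 28, the highest among the type II peaks, had a median fold of 3.05, and the other 3984 a median of 1.54. The difference in fold between the clusters therefore went together with a difference in background, and the part of the background in it was not tested. Neighbouring genes are not replicates, so the clusters were not compared by a test.

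Per length of chromosome, the clusters held 8.59 (type I) and 10.1 (type II) H3K4me3 peaks per Mb, where the whole of chromosome 11 held 3.67 and chromosome 15 held 2.39. Genes were also denser there, with 62.1 and 38.9 protein-coding genes per Mb in the clusters against 13.2 and 7.47 on the chromosomes. Within the clusters the peaks were gathered in a few places. A stretch of 668 kb in the type I cluster had no H3K4me3 peak and contained 9 members, among them Krt12, Krt20, Krt39, Krt40 and Krt31. It also held 23 genes named Krtap, the keratin-associated proteins that cross-link hair keratins. A stretch of 483 kb in the type II cluster, from Krt80 to Krt1, had none and contained 17 of the 26 members, among them Krt7, Krt5, Krt6a, Krt75, Krt71 and Krt2. Of all distances between neighbouring peaks of the list 17.1% were as long as the first stretch and 22.5% as long as the second, with a median of 139 kb.

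The p53 lists had 1 peak each in the clusters, both in the type II cluster near Krt7 and Krt87. Krt7 encodes a type II keratin of simple and glandular epithelia, and Krt87 a type II hair keratin. The K17KO p53 peak, from 101412284 to 101412574 on chromosome 15, was centred 26 bp downstream of the start of Krt7, where the promoter above is in capitals. It had a fold of 3.36 on 12 fragments (6.20 to 21.0) over 2.87, with a −log10 q of 1.51. It ranked 1012 of 1101 by fold, so it was among the weakest peaks of that list. The WT p53 peak, from 101431849 to 101432170, lay inside Krt87, 519 bp from its lower end, and 4.2 kb from Krt7, and it counted for both. It had a fold of 3.90 on 7 fragments (2.81 to 14.4) over 1.05, with a −log10 q of 1.01, and ranked 1658 of 2909 by fold. The K17KO peak lay 19.1 kb from Krt87, and the p53 lists had no keratin site in common. With 1 keratin peak in each p53 list, this does not show a difference between genotypes. Beyond the 5 kb limit the next members in the K17KO list were Krt87, Krt88 at 35.3 kb and Krt80 at 42.3 kb, and in the WT list Krt88 at 15.7 kb, Krt81 at 27.1 kb and Krt86 at 41.5 kb. Both q-values were above 0.01. With that limit 0 of 53 members had a p53 peak in the K17KO list (2.77% of all genes) or in the WT list (0.822%), and 6 (11.3%) had an H3K4me3 peak (18.4%).

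In the type I cluster 0 of 27 members had a p53 peak in the K17KO list (3.79% of all genes) or in the WT list (6.75%). In the type II cluster 1 of 26 members (3.85%) had one in the K17KO list and 2 of 26 (7.69%) in the WT list, near those shares. The nearest K17KO p53 peak to any type I member was 820 kb away, at Krt222, and the nearest WT p53 peak was 52.8 kb away, at Krt42. The median distance from a type I member to the nearest peak was 1180 kb in the K17KO list and 293 kb in the WT list, and for type II members it was 286 kb and 126 kb. Over all protein-coding genes these medians were 581 kb and 242 kb. The lists differ in length. For H3K4me3 the median distance was 29.2 kb over type I members and 64.1 kb over type II members, against 66.7 kb over all protein-coding genes.

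**Figure D4:**
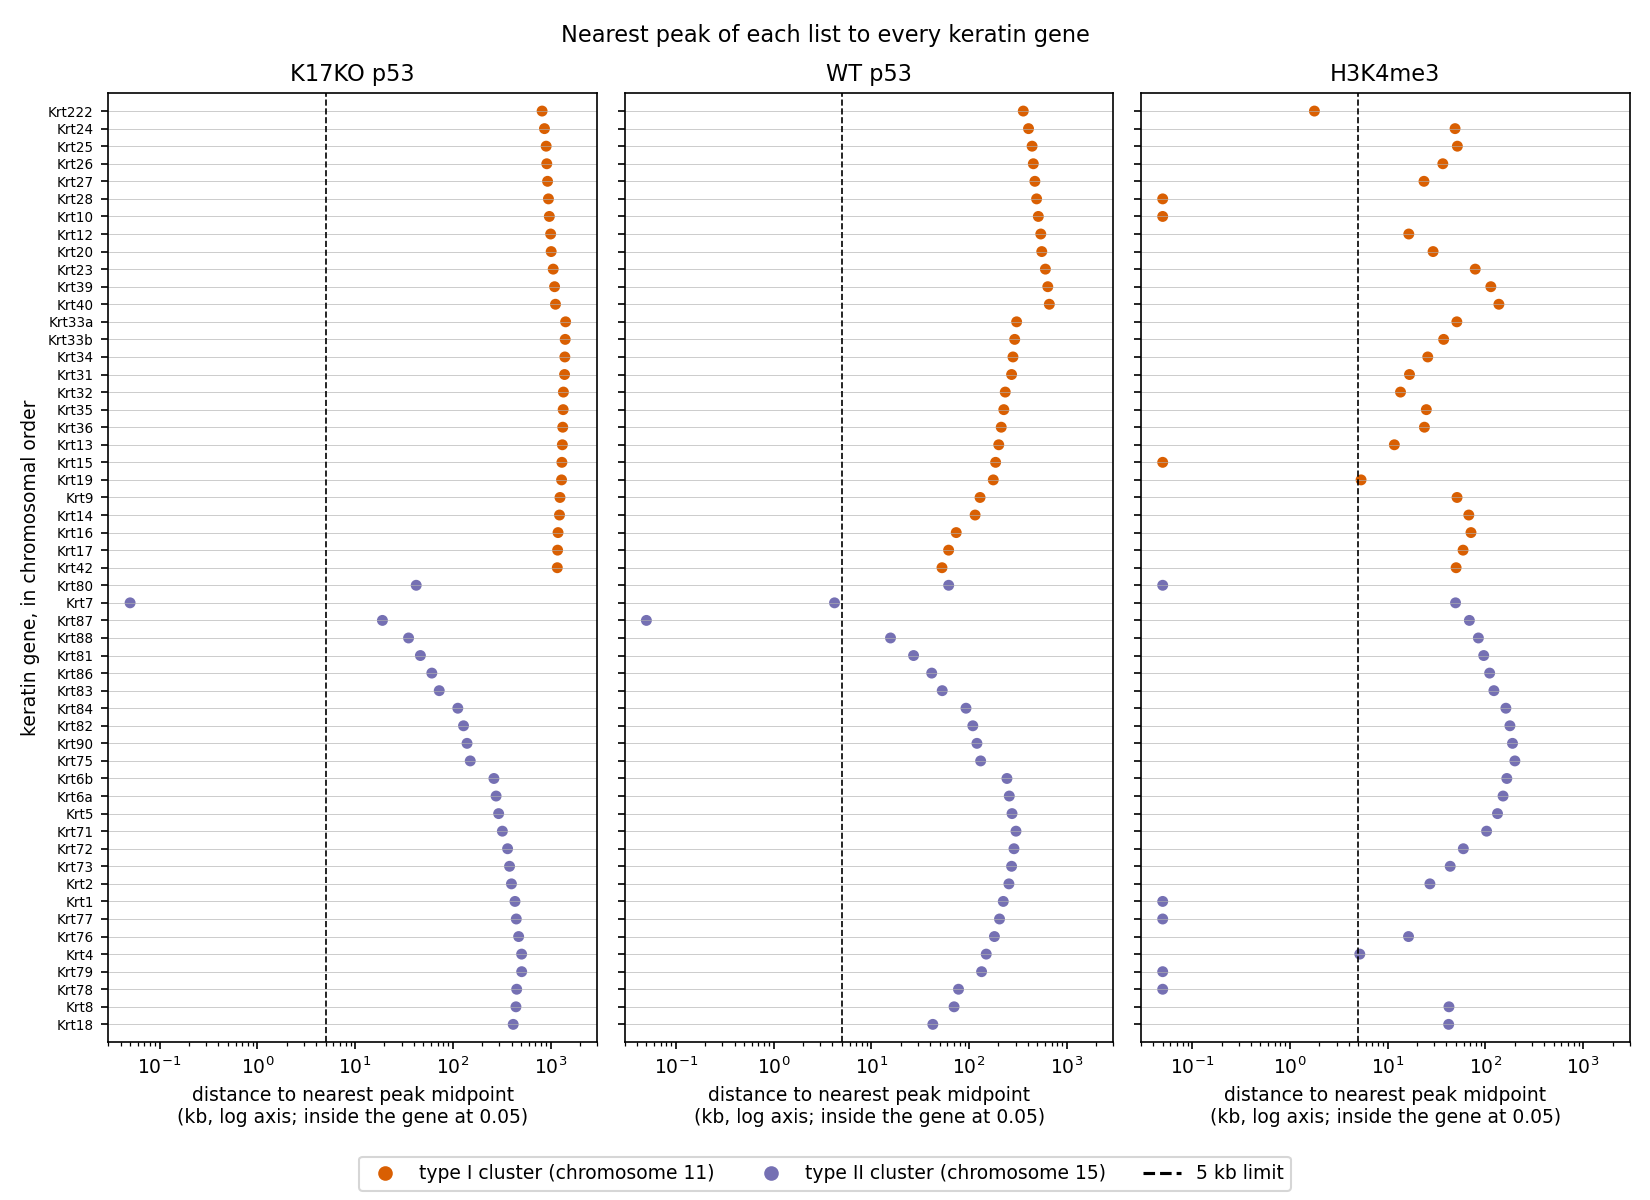
Distance from each keratin gene to the nearest peak midpoint in the K17KO p53, WT p53 and H3K4me3 lists (kb, log axis), with genes in chromosomal order, type I in orange and type II in purple, the 5 kb limit dashed, and genes with a midpoint inside them drawn at 0.05. Type I genes all lie at or beyond 820 kb in the K17KO p53 panel, and 9 genes lie left of the dashed line in the H3K4me3 panel.

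The promoters of members had sequence features in common that the choice by name did not use. They were poor in CpG dinucleotides, with a median of 4 per 250 bases in 37 promoters, against 10 in 21263 promoters of protein-coding genes. The range among members was 1 to 16, and Krt7 had the 16. The 5 members with both a promoter and an H3K4me3 peak (Krt10, Krt28, Krt77, Krt78 and Krt79) had a median of 3, while over all protein-coding genes the promoters of genes with an H3K4me3 peak had a median of 16 and the others of 7. TATAAA on either strand was found in 17 of 37 member promoters (45.9%) and in 11.6% of all. On the gene's strand and within 40 bases of the start it was found in 14 (37.8%), against 2.84% of all, with 11 of 21 in the type I cluster and 3 of 16 in the type II cluster. TGACTCA, the AP-1 letters, was found on either strand in 1 promoter (2.70%, against 4.06% of all), that of Krt13. GCCNNNGGC, the AP-2 letters, was found in 5 (13.5%, against 16.3%), among them Krt7.

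The consensus of a p53 half-site, which reads alike on both strands, was found in 3 of 37 member promoters (8.11%), against 6.31% of all. A full p53 site has a pair of half-sites, and no full site was searched for. The 3 matches are shown in capitals with 10 bases on each side, at Krt5 (chr15:101712981-101713010), Krt82 (chr15:101550702-101550731) and Krt76 (chr15:101893102-101893131), all on the minus strand, because none of them lay near a p53 peak.
Krt5: gctgccccccAGGCATGCCCagcccactaa
Krt82: ttaggggtttGAACAAGTCCagtcccccag
Krt76: ttgtcaactgAGGCAAGTTTgggtgattaa

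Their letters began 95, 62 and 201 bases before the start in that order. The nearest p53 peak to Krt5 was 295 kb away in the K17KO list and 275 kb away in the WT list. For Krt82 these distances were 129 kb and 109 kb, and for Krt76 472 kb and 182 kb. The Krt7 promoter, which the K17KO p53 peak reached, had no match to the half-site in its 250 bases.

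Genes that work with keratins were described in the same way, in lists written with earlier results of these data known. Keratin-associated protein genes, which are short and clustered like the hair keratins they cross-link, had a peak at 0 of 56 in each of the 3 lists, where the shares of all genes were 3.79% for K17KO p53, 6.75% for WT p53 and 23.9% for H3K4me3. Transcription factors of keratin genes had an H3K4me3 peak at 10 of 18 (55.6%, against 23.9% of all genes), led by Grhl3, an epidermal barrier regulator (2.88-fold), Sp6 (1.99-fold), Hoxc13, a hair keratin regulator (1.96-fold), and Gata3, needed for the inner root sheath (1.93-fold). Hoxc13 was the 1 of 18 with a K17KO p53 peak (5.56%, against 3.79%), of 4.87-fold, and 0 of 18 had a WT p53 peak (6.75% of all genes). Other intermediate filament genes had an H3K4me3 peak at 8 of 15 (53.3%, against 23.9%), led by the lens filament gene Bfsp2 (3.42-fold), the neurofilament genes Nefh (2.47-fold) and Ina (2.25-fold), and Bfsp1 (1.89-fold). Gfap, of astrocytes, was the 1 of 15 with a K17KO p53 peak (6.67%, against 3.79%), of 4.32-fold, and 0 of 15 had a WT p53 peak (6.75% of all genes). The Gfap peak lay 1386 bp outside that gene, and the H3K4me3 peak of Hoxc13 lay 607 bp outside Hoxc13.

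Genes of the desmosomes and hemidesmosomes, which anchor keratin filaments to the cell membrane, had an H3K4me3 peak at 5 of 19 (26.3%, against 23.9% of all genes), with Dsg2 (3.29-fold), Dst (2.26-fold), Itgb4 (2.07-fold) and Ppl (1.72-fold) highest. That Itgb4 peak lay 4013 bp outside the gene. K17KO p53 peaks lay at 2 of 19 (10.5%, against 3.79%), Itgb4 (4.98-fold) and Dst (4.56-fold). WT p53 peaks lay at 3 of 19 (15.8%, against 6.75%), Pkp2 (4.52-fold), Jup (4.09-fold) and Dst (3.06-fold). These shares rest on few genes, and the part of gene length in them was not tested. Dst is the long gene of a linker protein, and its p53 peaks lay deep inside it, at different sites. The K17KO peak was 119915 bp from the nearer gene end and the WT peak 160593 bp. For the WT peak only 6 fragments were counted, and its −log10 q, 0.376, was the lowest value in the WT p53 list. For the K17KO peak 8 fragments were counted, and its −log10 q was 2.08.

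**Figure D5:**
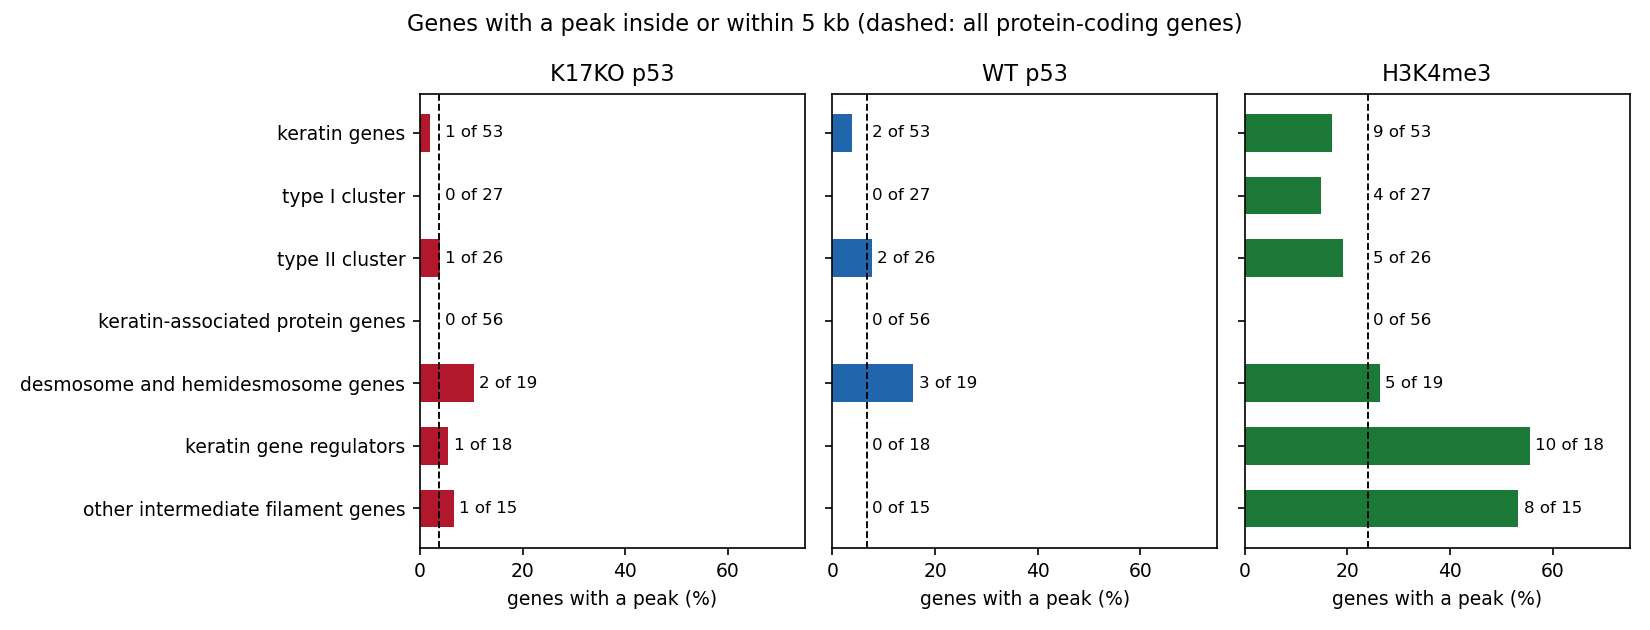
Share of genes with a peak inside or within 5 kb (%, horizontal, bars from 0) in the K17KO p53, WT p53 and H3K4me3 lists, with counts beside the bars and the share of all protein-coding genes dashed. The keratin genes lie left of the dashed line in all 3 panels, and keratin-associated protein genes are at 0 in each.

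Other keratinocyte markers were checked against the tissue label. Of 8 such genes that are not keratins 1, Sbsn, had an H3K4me3 peak (12.5%, against 23.9% of all genes), and Trp63, Itga6, Perp, Lor and Ivl had none. Markers of dermal fibroblasts had 1 of 8, endothelial cells 1 of 6, melanocytes 1 of 6, adipocytes 1 of 6, immune cells 0 of 6 and skeletal muscle 0 of 6. None of these markers had a K17KO p53 peak (3.79% of all genes). WT p53 peaks (6.75% of all genes) lay at 3 of 8 fibroblast markers, 1 of 6 melanocyte markers, 1 of 6 muscle markers and none of the others. A list of peaks does not tell which cells of the skin the fragments came from, and the part of other cell types in the keratin peaks was not tested.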

How the data were processed

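Bowtie2 version 2.2.5, SAMtools version 1.7, MACS2 version 2.1.2 and the build mm10 are named in the submitters' processing notes, with no role or order. The deposited lists have 10 columns: the authors' fold enrichment is a ratio over the caller's background, the authors' −log10 p and −log10 q (p-value and q-value) belong to each peak, and the deposited score is 10 times the −log10 p without decimals. Which samples, pooling, control and threshold lie behind a list is not stated there. Fragments and background were recovered by solving fold and −log10 p together as a Poisson tail, and 100.0% of the peaks gave a whole number of fragments (tolerance 0.001 on the −log10 p scale).

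Gene positions came from a RefSeq gene table (GRCm38.p6) used without strand or exons, and start sites and strands from a RefSeq promoter table. Peaks counted for a gene by their midpoint, and overlaps needed 1 bp. Counting was checked on simulated data, where all 200 planted genes were recovered among 21887. The members, gene lists and groups were chosen with earlier results of these data known. Named are the members with a peak, the always-reported Krt17, Krt5, Krt14, Krt1, Krt10, Krt6a, Krt16, Krt8, Krt18 and Krt15, those just outside 5 kb, and up to 4 genes of each partner list. Every other gene named (Krt2, Krt9, Krt6b, Krt12, Krt20, Krt25 to Krt27, Krt31, Krt32, Krt39, Krt40, Krt42, Krt71, Krt75, Krt76, Krt82, neighbouring genes and markers) was named after its values were seen. Python 3.11.15 with pandas 2.3.3 and scipy 1.17.1 was used.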

Additional observations from a re-analysis of the deposited data

How the results depend on the processing

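Counts of members with a peak were recomputed with other windows and thresholds. The K17KO p53 count of 1 became 2 with a 20 kb window (5.94% of all genes) and 0 at q-values up to 0.01 or in the upper 50% by fold. The WT p53 count of 2 became 1 with a 1 kb window (5.70%) or inside genes only (5.39%), and 0 at q-values up to 0.01 or in the upper 50% by fold. The H3K4me3 count of 9 became 16 with a 20 kb window (32.9%), and otherwise ran from 6 to 9. In the upper 50% by fold it was 8 of 53 (15.1%) against 10.8% of all genes, so the members were then above the share of all genes and not below it. For WT p53, members were also above that share when only gene ends counted (3.77% against 2.72%). Those 2 members, Krt7 and Krt87, were counted for the same peak, so this does not show a trait of the members. Among peaks at members, 0 were shared between lists also with a gap of up to 500 bp allowed. The same count over all peaks was not made. No paired analysis was possible because the peak lists carry no replicate, and for that reason no replicate could be left out. The median WT p53 peak rested on 7 fragments, which limits what that list can show at any single gene.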

Other observations

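Krt8 and Krt18, the pair of simple epithelia, lie side by side in the type II cluster and had no peak within 5 kb. Their nearest H3K4me3 peaks lay 42.4 kb and 42.1 kb away, their nearest K17KO p53 peaks 443 kb and 415 kb away and their nearest WT p53 peaks 70.3 kb and 42.6 kb away. For Krt18 the nearest H3K4me3 and WT p53 peaks both lay inside Eif4b, a translation initiation factor gene.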
